A study of Mus musculus with 4 samples.

Results

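The genes described here encode the surfactant proteins of the lung and the proteins that process, store and load surfactant in lamellar bodies. They were chosen by gene symbol, and no measured value entered the rule, though earlier results of these data were known. The set is Sftpc, Sftpb, Sftpb_1, Sftpa1, Sftpd, Abca3, Lamp3, Napsa and Slc34a2. They make up 9 of the 40092 rows of the count table. Sftpb_1 is a second copy of Sftpb on a fix patch of the genome, a corrected stretch of sequence listed beside the chromosome, so the 9 rows stand for 8 genes. All 9 rows passed the filter on low counts and were among the 16661 rows tested.

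The counts came from RNA-seq of alveolar type II (AT2) cells sorted from mouse lungs 14 days after bleomycin (BLM), a drug that injures the alveolar epithelium. There were 2 libraries of Ctrl cells (Alkbh5 flox/+) and 2 of A5-CKO cells (Alkbh5 flox/flox), and the comparison asked how loss of Alkbh5, an enzyme that removes m6A marks from RNA, changed the transcripts of injured AT2 cells. Mice of both genotypes carried Sftpc-CreERT2 and Rosa26-mTmG and received tamoxifen, which activates the recombinase, and then BLM. The labels give neither the age of the mice nor whether a library came from 1 mouse, and no library of uninjured lung was analysed here. The recombinase was expressed from Sftpc, itself one of the genes described, and the sort took cells that had switched to GFP, so the libraries hold cells in which Sftpc had been active at the time of tamoxifen, whatever they expressed later. The Ctrl mice carried 1 floxed allele, so their recombined cells could keep only 1 working copy of Alkbh5.

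AT2 cells make surfactant, a film of phospholipid and protein that lowers surface tension and keeps alveoli open at the end of a breath. The small hydrophobic proteins SP-B and SP-C, from Sftpb and Sftpc, are cut from larger precursors on the way to lamellar bodies and insert into the lipid film. SP-A and SP-D, from Sftpa1 and Sftpd, are soluble collectins that bind sugars on microbes, and ABCA3 pumps phospholipid into the lamellar body. In injured lung, AT2 cells that turn into AT1 cells pass through a transitional state in which surfactant genes are known to be expressed less.

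The promoters of 4 genes are shown, those of Sftpb and Sftpa1 because the genotypes were separated for these genes, and those of Abca3 and Lamp3 because their libraries overlapped. The sequences are from RefSeq on GRCm38.p6, and 5 of the 8 genes were found there. Slc34a2, whose genotypes were also separated, was the fifth, and its sequence is not shown. Sftpc, Sftpd and Napsa are named only. Each is the 150 bases before the start site, written 5′ to 3′ on the strand of the gene. Capitals mark TATAA on the gene's strand (the core of a TATA box), CAAG on either strand (the core of NKX2 sites, read as CTTG on the other) and TGTTT on either strand (the core of forkhead sites, read as AAACA on the other). No marked motifs overlap each other.
Sftpb: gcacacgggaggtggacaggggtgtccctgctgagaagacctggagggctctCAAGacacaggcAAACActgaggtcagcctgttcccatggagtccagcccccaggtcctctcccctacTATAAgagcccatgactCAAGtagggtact
Sftpa1: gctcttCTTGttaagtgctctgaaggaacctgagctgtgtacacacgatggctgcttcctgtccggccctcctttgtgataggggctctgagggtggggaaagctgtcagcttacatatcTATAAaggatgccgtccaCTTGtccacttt
Abca3: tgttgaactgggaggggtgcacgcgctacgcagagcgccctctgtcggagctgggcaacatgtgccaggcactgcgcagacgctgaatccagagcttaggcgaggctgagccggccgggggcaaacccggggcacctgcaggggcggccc
Lamp3: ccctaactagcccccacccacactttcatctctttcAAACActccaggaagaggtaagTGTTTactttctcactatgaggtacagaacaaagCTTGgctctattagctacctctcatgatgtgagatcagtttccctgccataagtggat

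The Sftpb window is chr6:72304460-72304609 on the plus strand, that of Sftpa1 is chr14:41131638-41131787 on the plus strand, that of Abca3 is chr17:24351873-24352022 on the plus strand and that of Lamp3 is chr16:19706366-19706515 on the minus strand. The Abca3 window ends inside the annotated gene, since its start site there lies downstream of the gene's first base. TATAA begins at position -30 in both Sftpb and Sftpa1 and is not in the other 3 windows, while 9.99% of 32851 promoter windows of the same length held it. CAAG is in the windows of Sftpb, Sftpa1 and Lamp3, and 69.8% of all windows held it. TGTTT is in those of Sftpb and Lamp3, and 30.0% of all windows held it. The windows of Abca3 and Slc34a2 held none of these letters and had a GC content of 69.3% and 66.0%, beside a median of 54.0% over all windows. The Slc34a2 window did hold TATATATA near its start site, which the exact search for TATAA did not count. The matches describe letters only, and no binding was measured. Among factors that bind such sites, Nkx2-1, the master regulator of lung epithelium, had normalized counts (CPM) of 412 and 722 in the Ctrl libraries and of 610 and 339 in the A5-CKO libraries, and the genotypes overlapped. Of the forkhead factors of lung epithelium, Foxa1 had 61.9 and 128 CPM in the Ctrl libraries, beside 91.1 and 61.5 in the A5-CKO libraries, which overlapped. Foxa2 had 97.3 and 129 CPM in the Ctrl libraries, beside 83.7 and 76.9 in the A5-CKO libraries, which were the lower ones, and its log2 fold change was -0.49 (SE 0.30, adjusted p = 0.579 in the quasi-likelihood test of edgeR).

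Levels are given as normalized counts (CPM), on library sizes scaled with edgeR's TMM factors, and where 4 values stand in a row the Ctrl libraries come first, with replicate 1 before replicate 2. The libraries held 18144865 to 20811757 counts, and 3 counts, taken as the limit of detection, were 0.128 to 0.177 CPM, which takes in counting error alone. The counts of replicates were further apart than chance sampling allows, at a chi-square per degree of freedom of 112 for Ctrl and 98.3 for A5-CKO. Alkbh5, the deleted gene, stood at 81.7 and 152 CPM in the Ctrl libraries, against 19.3 and 36.6 CPM in the A5-CKO ones, which were both low. Its log2 fold change, A5-CKO over Ctrl, was -2.06 (SE 0.46), with an adjusted p of 0.528 in the quasi-likelihood test of edgeR (Benjamini-Hochberg, over all 16661 genes) and of 0.0248 in DESeq2 on the same genes. The p-values rest largely on a dispersion estimated over all genes, and less on the spread of each gene between these samples. An exact permutation of 2 against 2 libraries could not give a two-sided p under 0.333.

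The surfactant genes were among the most abundant transcripts in every library. Sftpc ranked from 2 to 4 among all rows by count, Sftpa1 from 2 to 3, Slc34a2 from 3 to 6 and Sftpd from 7 to 9. The 9 rows held 5.12% and 6.68% of all counts in the Ctrl libraries, compared with 4.45% and 3.75% in the A5-CKO libraries. The A5-CKO shares were the lower ones. Exact (Clopper-Pearson) 95% binomial intervals, for counting error alone, were 5.11% to 5.13%, 6.67% to 6.69%, 4.44% to 4.46% and 3.75% to 3.76%. In these bulk samples, fewer AT2 cells and less surfactant RNA per cell cannot be told apart.

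All 9 rows had a negative log2 fold change, with a median of -0.88, beside a median of -0.02 over all 16661 genes. At an adjusted p of 0.05, 0 of the 9 passed in the quasi-likelihood test of edgeR, as did 0.0% of all genes, and 0 passed in DESeq2, where 0.33% of all genes did after the same filter and 0.385% after its default one. At an unadjusted p of 0.05 in edgeR, 3 rows were lower in A5-CKO, namely Napsa and the copies of Sftpb, against 4.71% of all genes, and 0 were higher, against 4.48%. In DESeq2, 7 rows, all but Abca3 and Lamp3, were lower at that unadjusted threshold, against 4.89% of all genes after the same filter and 2.93% after the default one. For 7 of the 9 rows, 6 of the 8 genes, the genotypes were separated, with the A5-CKO libraries the lower ones, which was so for 23.5% of all genes. Among the 69 other genes at a mean of at least 1000 CPM, however, 59.4% showed that separation and the median log2 fold change was -0.62. With total counts in place of TMM factors, 6 rows, 10.1% of all genes and 34.8% of these abundant genes were separated in that direction, while 34.8% of all genes were separated in the other. The members' count is therefore set beside these abundant genes too, and the difference between them was not tested.

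**Figure D1:**
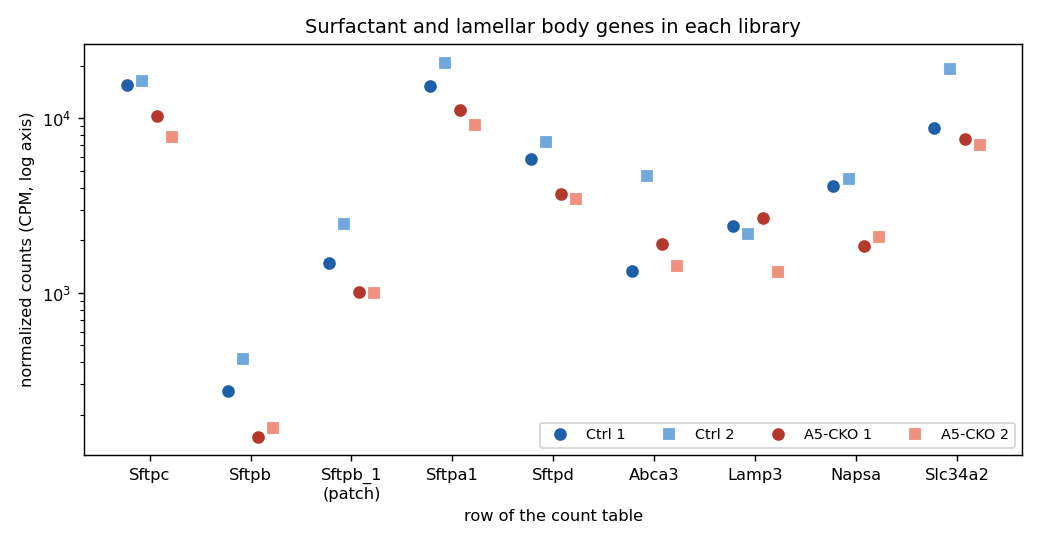
Normalized counts (CPM, log axis) of each of the 9 rows in the 2 Ctrl and 2 A5-CKO libraries, 1 point per library. The chromosomal copy of Sftpb and its patch copy, Sftpb_1, are drawn apart. Sftpc, Sftpb, Sftpb_1, Sftpa1, Sftpd, Napsa and Slc34a2 are separated by genotype, with Ctrl above, while Abca3 and Lamp3 overlap.

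Sftpc encodes SP-C, the hydrophobic protein made by AT2 cells and by no other lung cell type in quantity. It lies at chr14:70520941-70524081 on the minus strand (GRCm38.p6, as for all positions given) and has 6 exons. The Ctrl libraries held 15477 and 16370 CPM and the A5-CKO libraries 10268 and 7856 CPM. The Ctrl libraries were close to each other and both were above the A5-CKO libraries. Ctrl had a mean of 15924 ± 632 CPM (SD, n = 2) and A5-CKO one of 9062 ± 1706 CPM (SD, n = 2). The log2 fold change was -0.81 (SE 0.44, 95% interval -1.87 to 0.24), with an adjusted p of 0.564 in the quasi-likelihood test of edgeR. It was -0.47 after a correction for GC content and transcript length, and the corrected libraries overlapped.

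Sftpb encodes SP-B, without which lamellar bodies and the surface film do not form. The chromosomal copy lies at chr6:72304610-72314373 on the plus strand and has 11 exons. The reads split between it and the patch copy, which held 84.4%, 85.5%, 87.0% and 85.5% of their summed counts. The split differed little between libraries, and the copies are best read together. Their sum was 1759 and 2884 CPM for Ctrl but 1155 and 1165 CPM for A5-CKO. The A5-CKO libraries were almost equal and the Ctrl libraries were both higher but far apart. The sum had a log2 fold change of -1.0 (SE 0.41, 95% interval -1.97 to -0.03), with an adjusted p of 0.528 in the quasi-likelihood test of edgeR. Apart, the chromosomal copy had a log2 fold change of -1.12 and the patch copy one of -0.98, or -0.61 without Ctrl 2. Reads that fit both copies equally well may have been lost, so the level of Sftpb is uncertain.

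The collectin genes Sftpa1 and Sftpd are neighbours on chromosome 14, at chr14:41131788-41136373 on the plus strand and chr14:41172212-41185198 on the minus strand, with 35838 bases between them. Sftpa1 stood at 15249 and 20810 CPM for Ctrl, against 11124 and 9094 CPM for A5-CKO. Sftpd stood at 5865 and 7264 CPM for Ctrl, against 3683 and 3444 CPM for A5-CKO. For both genes the A5-CKO libraries lay below the Ctrl libraries. The log2 fold change of Sftpa1 was -0.83 (SE 0.46, 95% interval -1.92 to 0.25) and that of Sftpd was -0.88 (SE 0.41, 95% interval -1.84 to 0.08), with adjusted p of 0.565 and 0.528 in the quasi-likelihood test of edgeR. Sftpd moved little with the choice of libraries, from -0.97 to -0.76 over the fits that drop 1 library.

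Napsa encodes napsin A, an aspartic protease of the lamellar body that cuts the SP-B and SP-C precursors. It lies at chr7:44572445-44586846 on the plus strand and has 9 exons. The Ctrl libraries held 4078 and 4505 CPM and the A5-CKO libraries 1846 and 2087 CPM. Libraries of the same genotype were close to each other and the genotypes were well separated. Ctrl averaged 4292 ± 302 CPM (SD, n = 2) and A5-CKO 1967 ± 171 CPM (SD, n = 2), for a log2 fold change of -1.13 (SE 0.39, 95% interval -2.04 to -0.21). Its adjusted p was 0.528 in the quasi-likelihood test of edgeR and 0.115 in DESeq2 on the same genes, the smallest there among the 9 rows. Dropping any 1 library kept the log2 fold change between -1.25 and -1.05.

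Abca3 encodes the phospholipid pump of the lamellar body membrane. It lies at chr17:24351921-24410204 on the plus strand and has 33 exons. The Ctrl libraries held 1332 and 4673 CPM and the A5-CKO libraries 1913 and 1423 CPM. Ctrl 1 was the lowest library of all and Ctrl 2 the highest, at 3.51 times Ctrl 1, so the genotypes overlapped. Abca3 had a log2 fold change of -0.85 (SE 0.61, 95% interval -2.30 to 0.61), with an adjusted p of 0.638 in the quasi-likelihood test of edgeR. Without Ctrl 2 it was 0.28, so the direction rested on that library.

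Lamp3 encodes DC-LAMP, a glycoprotein of the lamellar body's limiting membrane that mature dendritic cells also make. It lies at chr16:19653381-19706365 on the minus strand and has 6 exons. The Ctrl libraries held 2418 and 2182 CPM and the A5-CKO libraries 2685 and 1313 CPM. The A5-CKO libraries bracketed the Ctrl libraries, with A5-CKO 1 at 2.05 times A5-CKO 2. Lamp3 had a log2 fold change of -0.20 (SE 0.46, 95% interval -1.29 to 0.88), with an adjusted p of 0.892 in the quasi-likelihood test of edgeR. Its sign was not fixed, at -0.82 without A5-CKO 1, 0.19 without A5-CKO 2 and 0.11 with total counts in place of TMM factors. After the GC and length correction it was -0.68, and its corrected A5-CKO libraries lay below the Ctrl libraries.

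Slc34a2 encodes NaPi-IIb, a sodium-phosphate cotransporter of the apical membrane of AT2 cells that takes up phosphate released from surfactant lipid. It lies at chr5:53049353-53071664 on the plus strand and has 13 exons. The Ctrl libraries held 8753 and 19065 CPM and the A5-CKO libraries 7556 and 7013 CPM. The A5-CKO libraries were close together and below both Ctrl libraries, of which Ctrl 2 was 2.18 times Ctrl 1. With total counts in place of TMM factors, the libraries of Slc34a2 overlapped. Slc34a2 had a log2 fold change of -0.93 (SE 0.52, 95% interval -2.17 to 0.30), with an adjusted p of 0.567 in the quasi-likelihood test of edgeR. Without Ctrl 2 it was -0.31.

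**Figure D2:**
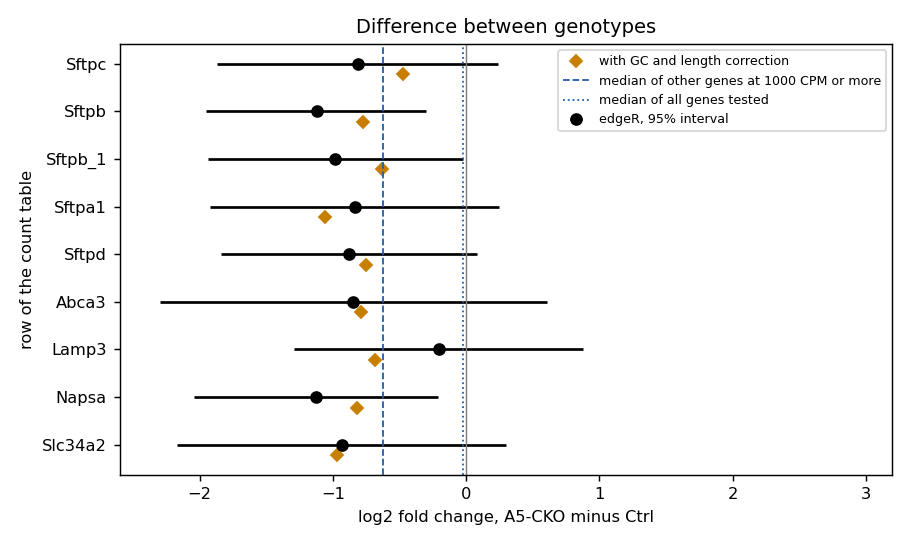
Log2 fold change, A5-CKO minus Ctrl, of each of the 9 rows, with edgeR estimates and 95% intervals as black points and bars, and estimates after the GC and length correction as diamonds. All 9 estimates lie below 0, the intervals of Sftpb, Sftpb_1 and Napsa leave out 0, and the dashed line marks the median of -0.62 of the other genes at 1000 CPM or more.

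**Figure D3:**
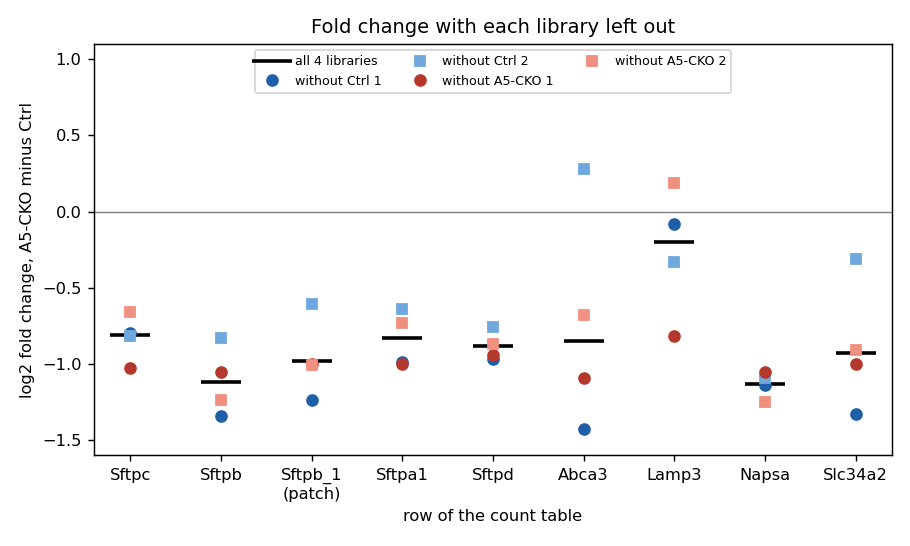
Log2 fold change of each row with all 4 libraries and after dropping each library. Napsa and Sftpd move least, and the estimates of Abca3 without Ctrl 2 and Lamp3 without A5-CKO 2 lie above 0.

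Compared per length of the longest transcript, as CPM per kilobase, the order of the genes was nearly the same in all 4 libraries. Sftpc was first, at 19541, 20670, 12964 and 9919 CPM per kilobase. Sftpa1 was next, at 5343, 7292, 3898 and 3186, and then came Sftpd, at 4600, 5697, 2889 and 2701. The place of Sftpa1 depended on the transcript taken, since its longest has 2854 bases and its shortest coding one 851, and with the short one it had 17919, 24454, 13072 and 10687 CPM per kilobase, above Sftpc in all libraries but Ctrl 1. Slc34a2 and Napsa changed places between libraries, and Abca3, with the longest transcript at 6476 bases, was last or next to last on this scale with 206, 722, 295 and 220 CPM per kilobase.

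Counts relative to Sftpc within a library do not depend on how libraries are scaled. Sftpd stood at 37.9%, 44.4%, 35.9% and 43.8% of the Sftpc count, and Sftpa1 at 98.5% to 127%. For both, the genotypes overlapped. Lamp3 stood at 15.6%, 13.3%, 26.2% and 16.7%, and it was the only one of the 7 other genes whose ratio separated the genotypes, with A5-CKO above. The share of all genes with such a separated ratio was not counted. The ratio can still depend on GC content and transcript length. After the GC and length correction the log2 fold change was -0.68 for Lamp3 and -0.47 for Sftpc, so the estimate of Lamp3 was then the lower. The difference between these estimates was not tested. Abca3 ranged from 8.60% in Ctrl 1 to 28.5% in Ctrl 2, with the A5-CKO libraries between them at 18.6% and 18.1%.

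**Figure D4:**
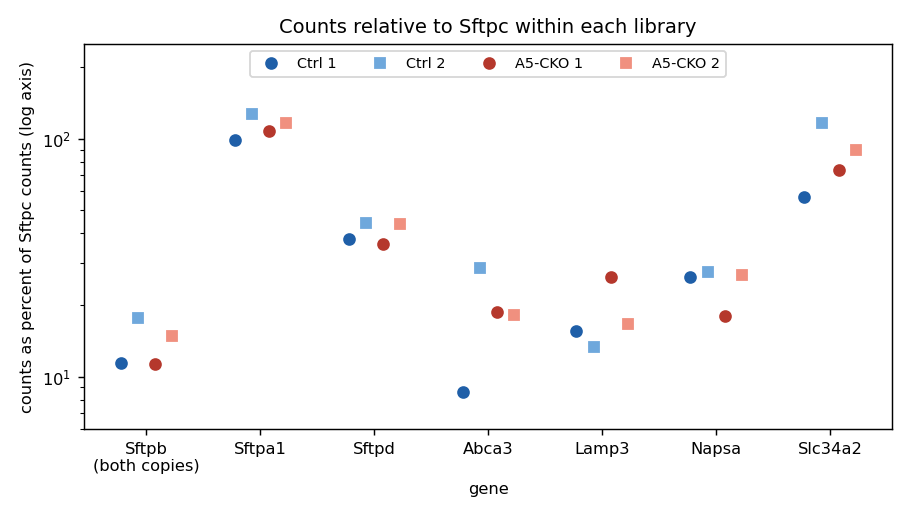
Counts of each gene as a percent of the Sftpc counts of the same library (log axis), 1 point per library. Only the ratios of Lamp3 separate the genotypes, with the A5-CKO values of 26.2% and 16.7% above the Ctrl values of 15.6% and 13.3%. The counts are not corrected for GC content and length.

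In their profile over the 4 libraries, as the distance between centred log2(CPM + 1) values, Sftpd (0.265) and Sftpa1 (0.269) were nearest to Sftpc among the members, followed by Napsa (0.501), and Abca3 (1.24) was farthest. Of 9915 genes with a mean of at least 10 CPM, the 5 nearest to Sftpc were Gatd3a, Ctf1, 4930592A05Rik, Arl6ip1 and Apbb1, at 0.0475 to 0.0707. Over 4 libraries such likeness describes these samples only.

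Over the whole table, log2 fold changes were lower at higher abundance. With the 9 rows left out, the median log2 fold change was 0.54 for the 1700 genes under 1 CPM, 0.23 for the 5037 from 1 to 10, -0.10 for the 7804 from 10 to 100, -0.34 for the 2042 from 100 to 1000 and -0.62 for the 69 at 1000 or more. The share of genes with both A5-CKO libraries below both Ctrl libraries went from 7.76% in the lowest class to 59.4% in the highest. Of the 9 rows, 8 are in the highest class, and all but Lamp3 lay below its median. The part of this trend in the members' values was not tested.

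**Figure D5:**
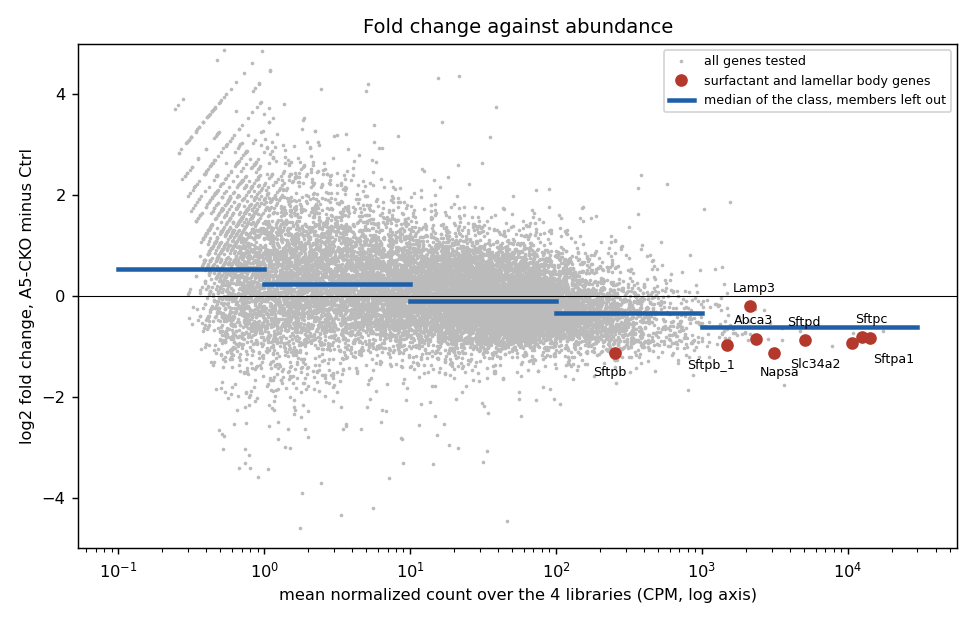
Log2 fold change against mean normalized count (CPM, log axis), with all tested genes in grey, the 9 rows in red and the median of each abundance class, members left out, as blue bars; 22 genes lie beyond the vertical axis. The class medians run from 0.54 to -0.62, and 8 of the 9 rows sit in the class at 1000 CPM or more.

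The genes around surfactant were counted in 5 lists, on regulators, protein processing and traffic, phospholipid synthesis, exocytosis and families of the members. Each gene counted once, 116 were tested, 0 passed an adjusted p of 0.05 in the quasi-likelihood test of edgeR, and 11 were lower and 2 higher at an unadjusted p under 0.05, where 4.71% of all genes were lower and 4.48% higher. The A5-CKO libraries were both below the Ctrl libraries for 31.0% and both above them for 12.9% of the 116, beside 23.5% and 20.3% of all genes. In DESeq2 after the same filter, 1 gene of the 116 passed an adjusted p of 0.05, as did 0.33% of all genes.

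That gene was Cebpa, a transcription factor needed for AT2 maturation and surfactant lipid genes. Its levels were 1044, 1532, 404 and 470 CPM. The genotypes were well separated, with a log2 fold change of -1.56 (SE 0.38). The adjusted p was 0.528 in the quasi-likelihood test of edgeR and 0.0169 in DESeq2 on the same genes. Of the 16 regulators, 2 lay below and 3 above in both A5-CKO libraries, beside 23.5% and 20.3% of all genes. The median of the 16 was -0.17, or 0.16 with total counts only. Etv5, a factor that maintains AT2 identity, had 716, 2173, 849 and 601 CPM, and like Abca3 it was highest in Ctrl 2 with overlapping genotypes.

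Of the 30 genes of phospholipid synthesis, remodelling and transport, 15 lay below and 3 above in both A5-CKO libraries, with a median log2 fold change of -0.52, or -0.20 with total counts only. Scd1, a fatty acid desaturase, had 18458, 24140, 12206 and 14307 CPM. Lpcat1, which makes the saturated phosphatidylcholine of surfactant, had 2542, 4713, 2146 and 1898 CPM. Srebf1, a transcription factor of lipid synthesis, had 622, 767, 291 and 314 CPM. The A5-CKO libraries lay below the Ctrl libraries for each of these. The log2 fold change of Srebf1 was -1.20 (SE 0.33), the largest of the list at 10 CPM or more, with an adjusted p of 0.528 in the quasi-likelihood test of edgeR. Stard10, Agpat2, Scap and Srebf2 were the others of the list with an unadjusted p under 0.05, all lower, and were named after their values were seen.

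Of the 24 genes of proprotein processing and traffic to lamellar bodies, 9 lay below and 3 above, beside 23.5% and 20.3% of all genes. The median log2 fold change of the 24 was -0.28, or 0.04 with total counts only. Npc2, a cholesterol carrier found in lamellar bodies, had 6446, 5213, 3421 and 3831 CPM. Ctsh, a protease of the SP-B and SP-C precursors like napsin A, had 3235, 2132, 1018 and 2170 CPM. Unlike Napsa, Ctsh overlapped between the genotypes, though the difference between the 2 genes was not tested. Of the 23 genes of exocytosis and pool control, 5 lay below and 2 above, beside the same 23.5% and 20.3% of all genes. The median of the 23 was -0.12, or 0.19 with total counts only.

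Markers of other cell types, which the gate could hold or the AT2 cells could turn into, are given beside these values. All 24 of the other AT2 markers tested had a negative log2 fold change, with a median of -0.72. Of these, 14 lay below in both A5-CKO libraries, beside 23.5% of all genes and 59.4% of the 69 genes at 1000 CPM or more without the members. The median of those 69 genes was -0.62. With total counts only, 20 of the 24 were negative and their median was -0.39, while the median of all genes moved to 0.30. Cbr2 and Fabp5 passed in DESeq2 on the same genes, at adjusted p of 0.0157 and 0.00479. All 14 transitional markers had a positive log2 fold change, with a median of 0.62, but 3 of the 14 lay above in both A5-CKO libraries and 11 overlapped, and their summed levels were 4010, 1759, 2681 and 4389 CPM, high in Ctrl 1 and A5-CKO 2. Krt8, their most abundant member, was at 832, 537, 537 and 836 CPM. Of the 16 AT1 markers, Ager and Pdpn did not pass the filter on low counts. Among the 14 tested, 7 lay above and 2 below in both A5-CKO libraries, beside 20.3% and 23.5% of all genes. Their median was 0.60, or 0.34 after the GC and length correction and 0.91 with total counts only. The 3 most abundant, Gprc5a, Emp2 and Aqp5, had log2 fold changes of -0.1, 0.09 and -0.79. Summed, all 16 stood at 4369, 4464, 4049 and 4319 CPM. None of the genes in these lists passed in the quasi-likelihood test of edgeR, and the part of a shift in cell state in the surfactant values was not tested.

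Summed macrophage and leukocyte markers stood at 2258, 892, 856 and 2637 CPM, and summed fibroblast and mural markers at 504, 216, 130 and 1155. Both sums were high in Ctrl 1 and A5-CKO 2 and low in Ctrl 2 and A5-CKO 1, so neither sum followed the genotype. Single genes could differ. Of 17 leukocyte markers tested, 2 lay below and 1 above in both A5-CKO libraries, beside 23.5% and 20.3% of all genes. Their median log2 fold change was 0.16. The 1 above was Ptprc, at 50.9, 22.5, 84.3 and 82.8 CPM. Of 10 fibroblast and mural markers, 1 lay below and 0 above, with a median of 0.78. The 1 below was Inmt, at 48.3, 52.7, 22.5 and 10.3 CPM. Endothelial markers summed to 102 to 182 CPM, with Cldn5 at 0 in all libraries. Summed club and ciliated markers stood at 3143, 2977, 2211 and 1555 CPM, so this sum did move with the genotype. It did so mainly through Scgb1a1, the club cell secretory protein, at 2262, 1936, 1518 and 1012 CPM. The log2 fold change of Scgb1a1 was -0.73, beside a median of -0.62 for the 69 other genes at 1000 CPM or more. Of the 12 markers, 6 lay below and 1 above in both A5-CKO libraries, beside 23.5% and 20.3% of all genes. The 1 above was Muc5b, at 10.5, 13.8, 27.0 and 26.3 CPM. The part of any of these cells in the surfactant values was not tested.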

How the data were processed

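RNA-seq of sorted AT2 cells from 2 Ctrl and 2 A5-CKO samples was analysed from 1 table of read counts. Per the labels and the study's methods, the authors trimmed reads with Trim Galore 0.6.10, removed ribosomal RNA reads, aligned with HISAT2 2.2.1 to mm10 with fix patches, removed duplicates and deposited raw counts per gene from featureCounts 2.0.3. The counting is described in the methods for another assay and was taken to hold for these libraries. The strand setting is not given in the sources used here, so genes with an antisense or overlapping partner are uncertain. How the removal of duplicates acted on short, densely covered transcripts such as Sftpc was not tested. Of the rows, 223 lie on fix patches.

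Counts were fitted in edgeR 4.0.16 (R 4.3.3) with TMM factors (0.933, 0.860, 1.11 and 1.13, Ctrl libraries first), filterByExpr, estimateDisp, glmQLFit and glmQLFTest, with Benjamini-Hochberg adjustment over 16661 genes at 0.05. The biological coefficient of variation was 41.6%. Standard errors are the log2 fold change over the square root of F. The fit was tested on simulated data. Alternatives were other scalings, DESeq2 1.42.0, limma voom (limma 3.58.1), other filters, a robust fit, a replicate block, copies on patches added to the main copy, each library left out, and per-library splines of 4 degrees of freedom on GC content and length, available for 91.6% of tested genes. The correction with the short Sftpa1 transcript was chosen after seeing the data. Coordinates and promoters are those of RefSeq on GRCm38.p6, and lengths are from GENCODE.

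The members and lists were chosen with earlier results of these data known. Named from each list were the 3 genes of highest mean CPM, any with an adjusted p under 0.05 and the 1 of largest log2 fold change at 10 CPM or more, of which the text gives those that bear on surfactant. 1 gene that the rule named is not reported here. Genes named for an unadjusted p were chosen after their values were seen.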

Additional observations from a re-analysis of the deposited data

How the results depend on the processing

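The count of members with an adjusted p under 0.05 was 0 under every alternative run. Their median log2 fold change of -0.88 moved to -0.56 with total counts only, where the median of all genes was 0.30, and ranged from -1.14 without Ctrl 1 to -0.64 without Ctrl 2 as each library was left out. Lamp3 changed sign with total counts only (0.11) and without A5-CKO 2 (0.19, in a range from -0.82 over the libraries left out), and Abca3 without Ctrl 2 (0.28, in a range from -1.43). The pathway lists held 1 gene with an adjusted p under 0.05, Cebpa, in DESeq2 with either filter, against 0 in edgeR. Alkbh5 passed the threshold in DESeq2, at a log2 fold change of -2.01 after the same filter and of -2.02 after the default one, and the cause was not tested. With the GC and length correction 6 members had A5-CKO below Ctrl, with Lamp3 among them and Sftpc and Sftpb_1 not, and 5 did with the short Sftpa1 transcript, under which Sftpa1 was at -0.56 in place of -1.06. The deviations of same-numbered libraries had a correlation of -0.368. With 2 libraries per group this value is the same for both replicate numbers, so it cannot decide whether the samples were paired. With the replicate block the members' median was -0.83, 0 members passed, and the smallest adjusted p among them in edgeR was 0.847. The members had 3313 or more counts in each library, and their standard errors rest largely on the dispersion estimated over all genes.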

Other observations

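Relatives of the surfactant genes in the same gene families had log2 fold changes of both signs. Of 35 relatives, 25 had enough counts to be tested, 13 with a negative and 12 with a positive log2 fold change. Of the 25, 5 lay below and 4 above in both A5-CKO libraries, beside 23.5% and 20.3% of all genes. Their median log2 fold change was -0.03, or 0.29 with total counts only. None passed an adjusted p of 0.05 in edgeR, and 2 were lower at an unadjusted p under 0.05. These were Sfta2, a small secreted protein of the alveolus, at 338 and 273 CPM in Ctrl libraries and 151 and 92.3 CPM in A5-CKO libraries (log2 fold change -1.33, SE 0.36), and Itm2c, a BRICHOS-domain relative of SP-C, at 565 and 554 CPM beside 287 and 297 CPM (log2 fold change -0.94, SE 0.32). Itm2b, another BRICHOS-domain gene, had 896 and 974 CPM beside 698 and 688 CPM. The lysosomal relatives of SP-B and napsin A overlapped between genotypes, with Psap at 1551, 542, 447 and 1418 CPM and Ctsd at 2991, 1123, 799 and 2277 CPM, both high in Ctrl 1 and A5-CKO 2 as the summed macrophage markers were. Sfta3-ps, at 108, 170, 362 and 70.1 CPM, and the collectin gene Mbl1, at 9.76, 12.2, 31.5 and 6.84 CPM, were highest in A5-CKO 1. Itm2b, Mbl1 and Sfta3-ps were named after their values were seen.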
